A study of Homo sapiens with 4 samples.

Results

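The genes described here encode 9 factors of the ATF4 and CHOP stress response, namely ATF4, ATF3, ATF5, DDIT3 (the gene of CHOP), CEBPB, CEBPG, TRIB3, NUPR1 and JDP2. They were chosen by symbol, matched through the Ensembl identifiers of the deposited table, and all 9 were found among its 58233 genes. Messenger RNA was sequenced in MIA PaCa-2 and PANC-1, established human pancreatic cancer cell lines of wild-type (WT) genotype. Each line received PBS or cannabichromene (CBC), a non-psychotropic cannabinoid of hemp, and was collected after 24 h, which gave 4 groups of 1 library each. CBC was added at 35 µM to MIA PaCa-2 and at 30 µM to PANC-1. These doses come from the general cell culture methods, because the sample records name none. The records name PBS as the control, whereas the methods speak of a vehicle and name acetonitrile as the solvent of CBC, so CBC and its solvent cannot be told apart here.

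ATF4 is a transcription factor of the integrated stress response. Kinases that sense unfolded protein, amino acid shortage, viral RNA or haem shortage phosphorylate eIF2 alpha, which lowers general translation while ATF4 mRNA is translated more. ATF4 pairs with C/EBP proteins and raises genes of amino acid supply, tRNA charging and redox balance, and it also raises DDIT3, whose product CHOP is known for its part in cell death after prolonged stress. In pancreatic cancer cells this response is known from nutrient-poor growth and from a high load on the endoplasmic reticulum (ER).

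The libraries held 21742775 to 27903667 counts. Levels are given as counts and as CPM, the count scaled to a common library size by the trimmed mean of M-values (TMM) of edgeR, on which a limit of 3 counts equals 0.110 to 0.135 CPM. Of the carcinoma markers, KRT8, KRT18, KRT19 and VIM were expressed in each library, whereas KRT7 stayed at or below 2.15 CPM. KRT7 had 2 counts with PBS and 52 with CBC in MIA PaCa-2 (log2 fold change 3.66, 2.62 to 7.63). In PANC-1 its log2 fold change was -0.02. The levels of KRT8, KRT18 and KRT19 were lower with CBC in both lines. KRT8 was at 1251 against 1801 CPM in MIA PaCa-2 and 276 against 604 CPM in PANC-1, with log2 fold changes of -0.53 and -1.13. For KRT18 these were -0.33 and -0.62, and for KRT19 -0.58 and -0.66. Over both lines edgeR called 0 of these 3 keratins (adjusted p 0.0623, 0.171 and 0.0992) and all 3 had an unadjusted p under 0.05, while DESeq2 called KRT8 and KRT19 lower. Of 15 markers of other cell types, 6 were at 0 in all libraries (PTPRC, CD3E, PECAM1, INS, GCG and CPA1). The summed level of the 15 was 6.61 and 2.06 CPM in MIA PaCa-2 with PBS and CBC, and 137 and 48.0 CPM in PANC-1, where COL1A1 held most of it. Their part in the results was not tested.

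The DNA just before the start sites is shown first for the genes in which a search found the letters of a known stress element. The C/EBP-ATF response element (CARE) was searched as TGATGNAA and the AP-1 element, the site of JUN and FOS family dimers, as TGACTCA, both on either strand, in the 250 bases before each RefSeq start (GRCh38.p14). RefSeq start windows were given for 8 of the 9 genes. Of these 8, 3 (37.5%) held the CARE letters in at least 1 window, against 3.89% of 27305 genes. The 8 genes have 19 windows, more per gene than all genes have, which raises a share by gene. By window, 3 of the 19 held the letters, against 3.14% of 35116 windows of this length. Capitals mark the matched letters, and each sequence runs 5′ to 3′ on the strand of the gene.
ATF3, CARE (chr1:212565205-212565234, plus strand): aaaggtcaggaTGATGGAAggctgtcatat
CEBPG, CARE (chr19:33374060-33374089, plus strand): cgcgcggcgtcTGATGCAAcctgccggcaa
JDP2, CARE (chr14:75427995-75428021, plus strand): atagccggggcTGATGCAAcccgtccc
DDIT3, AP-1 (chr12:57520738-57520766, minus strand): gcgcgcgcgcaTGACTCAcccacctcctc
The last letter of the match lay 184 bases before the start in ATF3, 35 in CEBPG, 9 in JDP2 and 232 in DDIT3. Each of these genes also has another start window; in DDIT3 that window begins 3 bases away and holds the same match, and in ATF3, CEBPG and JDP2 the other windows held none. AP-1 letters were also found in ATF5, inside an annotated exon, and 5.19% of all genes had them. No match was found in the windows of ATF4, CEBPB and TRIB3, and the cyclic AMP response element, searched as TGACGTCA, was found in none of the 8 genes against 2.03% of all genes. These matches describe letters and not binding.

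With CBC, 8 of the 9 genes rose over both lines and ATF5 did not pass the test. The largest increases were in ATF3, NUPR1, DDIT3, TRIB3 and CEBPB, and ATF4 itself, CEBPG and JDP2 rose by smaller amounts. In MIA PaCa-2 cells 8 genes were higher past a log2 fold change of 1 and none was lower, while 11.5% of 14001 tested genes were higher and 8.97% were lower by this rule. In PANC-1 cells 7 genes were higher and none was lower, against 7.71% and 7.03% of 14091 tested genes. The 7 that were higher in both lines were ATF3, DDIT3, CEBPB, CEBPG, TRIB3, NUPR1 and JDP2, while 3.33% of the 12502 genes tested in both lines were higher in both. The 9 genes were chosen with earlier results of these data known, so these shares describe them and are not independent support. All 9 reached 1 CPM in a library of each line, the condition for being tested. NUPR1 reached it in MIA PaCa-2 with CBC alone and so could only be counted as higher there. With 1 CPM required in both libraries, 7 of 8 genes were higher in MIA PaCa-2, against 8.18% of all genes, and 7 of 9 in PANC-1, against 5.64%. The median log2 fold change of the 9 was 3.35 in MIA PaCa-2 and 2.40 in PANC-1, and that of all tested genes was -0.01 and 0.02. With 1 library per condition there is no test within a line, and the 95% intervals given below cover counting error only. They are exact binomial intervals of the count ratio, except those of the difference of the response between the lines.

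The test over both lines was edgeR's quasi-likelihood test with the line as a block, which uses the lines as the only replicates of CBC. Adjusted p-values below are from this test, with Benjamini-Hochberg adjustment over 16381 genes. It called 2.26% of those genes higher and 2.45% lower, and of the 9 genes it called 8 higher and 0 lower. The same counts were reached at an unadjusted p under 0.05, where 10.6% of all genes were higher and 10.4% lower, and with DESeq2, which called 3.55% higher and 4.52% lower. In libraries of whole cultures, a change in the RNA of each cell and a change in which cells remain cannot be told apart.

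**Figure D1:**
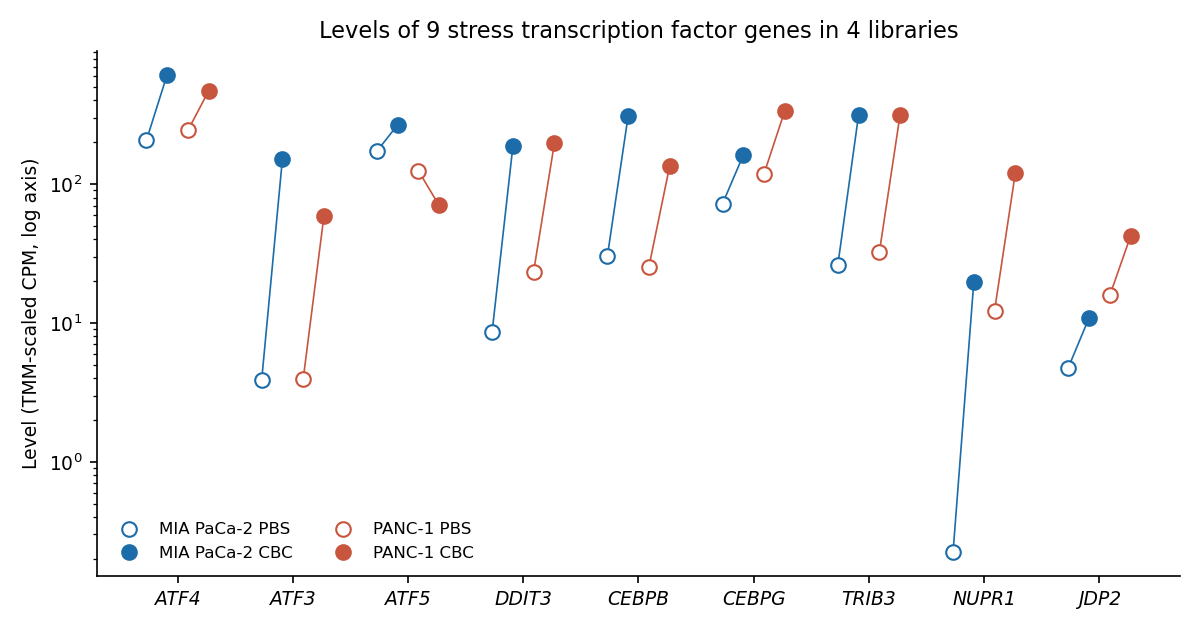
Level of each gene in each library, in TMM-scaled CPM on a log axis, with open points for PBS and filled points for CBC (1 library per point, so no error bar). Lines join PBS to CBC within MIA PaCa-2 (blue) and PANC-1 (red); only ATF5 in PANC-1 lies lower with CBC, at 70.1 against 125 CPM.

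ATF4 (chromosome 22, 39519695 to 39522683), the head of this group, had 4593 counts with PBS and 15183 with CBC in MIA PaCa-2, or 207 and 614 CPM. In PANC-1 cells it had 5529 and 12810 counts, or 243 and 469 CPM. Both CBC libraries thus lay above both PBS libraries. The log2 fold change was 1.57 (95% interval 1.52 to 1.62) in MIA PaCa-2 and 0.95 (0.90 to 0.99) in PANC-1, which is just short of the fold limit and passes it at 1.02 when library totals replace TMM. Over both lines ATF4 rose by 1.27 ± 0.22 (log2, SE, edgeR adjusted p = 0.0229). ATF4 has 4 processed copies elsewhere in the genome, and they held at most 6 counts each in any library.

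DDIT3 (chromosome 12, 57516588 to 57521737) encodes CHOP, a C/EBP family protein that ATF4 induces. Its level was 8.63 CPM with PBS and 187 CPM with CBC in MIA PaCa-2, and 23.4 and 196 CPM in PANC-1. The PBS libraries differed between the lines, and the CBC libraries lay close together. The increase was 21.4-fold (log2 4.42, 4.23 to 4.65) in MIA PaCa-2 and 8.35-fold (3.06, 2.94 to 3.20) in PANC-1. Over both lines the log2 change was 3.74 ± 0.36 (SE, edgeR adjusted p = 0.00597). The ends of DDIT3 overlap MARS1 by 982 bases and MBD6 by 1028 bases, both on the opposite strand. MARS1 had 3702 and 6835 counts in MIA PaCa-2 with PBS and CBC, and 8277 and 14419 in PANC-1. The library kit keeps strand, but how the counting treated strand is not given in the sources used here, and the effect of reads from these genes on DDIT3 was not tested.

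TRIB3 (chromosome 20, 362835 to 397559) encodes a pseudokinase that is induced by ATF4 and CHOP and restrains them. It had 582 and 7775 counts in MIA PaCa-2 with PBS and CBC (26.2 and 314 CPM) and 733 and 8594 counts in PANC-1 (32.2 and 314 CPM). The lines were alike in both conditions, and with CBC no other gene of the 9 lay closer between them. The increase was 12.0-fold (log2 3.58, 3.46 to 3.71) in MIA PaCa-2 and 9.73-fold (3.28, 3.18 to 3.40) in PANC-1. TRIB3 rose by 3.44 ± 0.22 over both lines (log2, SE, edgeR adjusted p = 0.00144) and ranked 4 among the 16381 genes by p-value.

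ATF3 (chromosome 1, 212565334 to 212620777) encodes an early stress factor that often represses its targets. Its level was 3.87 CPM with PBS and 151 CPM with CBC in MIA PaCa-2, and 3.91 and 58.5 CPM in PANC-1. The PBS libraries were alike at 86 and 89 counts, and the CBC library of MIA PaCa-2 lay above that of PANC-1. The increase was 38.3-fold (log2 5.26, 4.98 to 5.61) in MIA PaCa-2 and 14.7-fold (3.87, 3.59 to 4.23) in PANC-1. It was 4.60 ± 0.39 over both lines (log2, SE, edgeR adjusted p = 0.00449), the largest estimate among the 9 genes in this test.

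JDP2 (chromosome 14, 75427716 to 75474111), a leucine zipper protein that represses AP-1 targets, had the lowest level per kilobase of the 9 in both CBC libraries. In CPM it had 4.77 and 10.9 CPM in MIA PaCa-2 with PBS and CBC and 15.8 and 42.1 CPM in PANC-1, so that both PANC-1 libraries lay above both MIA PaCa-2 libraries. The log2 fold change was 1.18 (0.86 to 1.53) in MIA PaCa-2, where the counting interval reaches below the fold limit, and 1.41 (1.24 to 1.59) in PANC-1. JDP2 rose by 1.31 ± 0.28 over both lines (log2, SE, edgeR adjusted p = 0.0439), and it lost this call at an adjusted p of 0.0549 when edgeR used DESeq2's size factors.

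CEBPB (chromosome 20, 50190830 to 50192668) and CEBPG (chromosome 19, 33373685 to 33382686) encode C/EBP proteins, of which C/EBP gamma is a known dimer partner of ATF4 and C/EBP beta a regulator of inflammatory and differentiation genes. CEBPB had 30.2 and 308 CPM in MIA PaCa-2 with PBS and CBC and 25.2 and 134 CPM in PANC-1. CEBPG had 72.4 and 162 CPM in MIA PaCa-2 and 119 and 338 CPM in PANC-1. The lines thus had opposite orders, with the higher CEBPB level in MIA PaCa-2 and the higher CEBPG level in PANC-1 after CBC. For CEBPB the increase was 10.2-fold (log2 3.35, 3.24 to 3.47) in MIA PaCa-2 and 5.30-fold (2.40, 2.28 to 2.54) in PANC-1. For CEBPG it was 2.24-fold (1.16, 1.08 to 1.25) and 2.84-fold (1.505, 1.44 to 1.57). Over both lines CEBPB rose by 2.89 ± 0.29 (log2, SE, edgeR adjusted p = 0.00620) and CEBPG by 1.34 ± 0.20 (adjusted p = 0.0172).

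NUPR1 (chromosome 16, 28532708 to 28539008) encodes a small chromatin protein first known from stressed pancreas. It had 5 counts with PBS and 490 with CBC in MIA PaCa-2, or 0.225 and 19.8 CPM. In PANC-1 cells it had 279 and 3276 counts, or 12.3 and 120 CPM. PANC-1 was the higher line in both conditions, and its PBS library was nearer to the CBC library than to the PBS library of MIA PaCa-2. The log2 fold change was 6.02 (5.23 to 8.09) in MIA PaCa-2, which rests on 5 counts in the control and was 4.09 with a pseudocount of 1 CPM. In PANC-1 cells it was 3.28 (3.11 to 3.47). Over both lines NUPR1 rose by 4.23 ± 0.59 (log2, SE, edgeR adjusted p = 0.0144).

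ATF5 (chromosome 19, 49928702 to 49933935), a relative of ATF4 known for the mitochondrial stress response, did not pass the test. It had 3837 counts with PBS and 6597 with CBC in MIA PaCa-2 (173 and 267 CPM), but 2837 and 1915 counts in PANC-1 (125 and 70.1 CPM). The CBC library was the higher of the pair in MIA PaCa-2 and the lower in PANC-1. The log2 fold changes were 0.63 (0.57 to 0.69) and -0.83 (-0.92 to -0.75), and the estimate over both lines was -0.09 ± 0.34 (SE, edgeR adjusted p = 0.911). ATF5 overlaps NUP62 by 1063 bases on the opposite strand, which had 2647 and 2365 counts in MIA PaCa-2 and 2168 and 1886 in PANC-1. The part of NUP62 reads in the ATF5 counts was not tested.

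**Figure D2:**
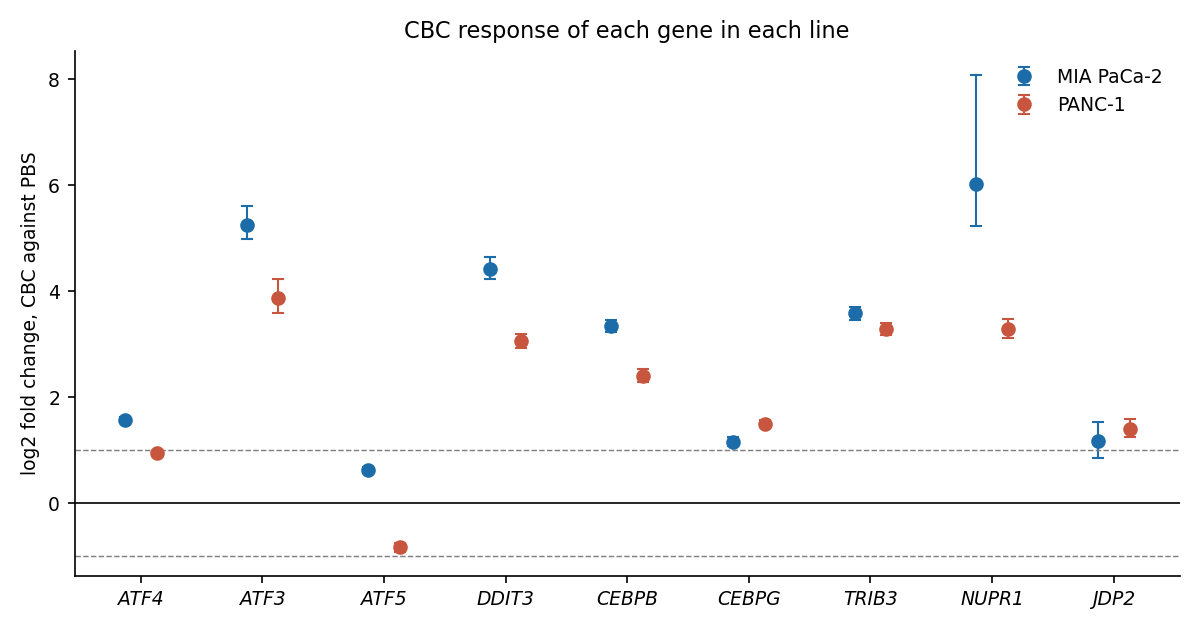
Log2 fold change of CBC against PBS for each gene in MIA PaCa-2 (blue) and PANC-1 (red), with bars for the 95% counting interval of the count ratio and dashed lines at the fold limit of 1 in each direction. ATF5 has values on both sides of 0 (0.63 and -0.83), and ATF4 in PANC-1 lies just under the upper dashed line at 0.95.

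The size of the response was compared between the lines as the difference of the log2 fold changes, MIA PaCa-2 minus PANC-1. It was above 0 for 7 of the 9 genes and reached 2.74 (counting interval 1.45 to 4.02) for NUPR1, 1.46 (1.36 to 1.56) for ATF5, 1.39 (0.95 to 1.82) for ATF3 and 1.36 (1.11 to 1.60) for DDIT3. CEBPB followed at 0.94, ATF4 at 0.62 and TRIB3 at 0.30. It was below 0 for CEBPG at -0.34 (-0.45 to -0.24) and for JDP2 at -0.23 (-0.60 to 0.13), where the interval includes 0. These intervals are normal approximations from the counts of 4 libraries, and that of NUPR1 rests on 5 counts in 1 of them. The doses differed between the lines, no degrees of freedom remain for a test of the difference, and line and dose cannot be told apart in it.

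At baseline, the PBS library of PANC-1 was higher than that of MIA PaCa-2 past the fold limit for 3 of the 9 genes and lower for none. By the same rule 24.0% of 14805 tested genes were higher in PANC-1 and 18.0% were lower, so the share that was higher is not far from that of all genes. The 3 were NUPR1 at a log2 ratio of 5.33 (4.53 to 7.40), JDP2 at 1.71 (1.41 to 2.05) and DDIT3 at 1.43 (1.20 to 1.68). The other 6 lay between -0.47 for ATF5 and 0.72 for CEBPG. NUPR1 reached 1 CPM in the PANC-1 library alone (12.3 against 0.225 CPM) and so could only be counted as higher. With 1 CPM required in both libraries, 2 of the described genes were higher and none was lower. Of all genes 2066 of 11922 were higher by that rule and 1528 were lower. ATF3, at 0.02 (-0.43 to 0.46), was within counting error, and its sign changed with library totals. With library totals the median of all genes in this comparison moved by -0.13, which is of the size of the smaller differences.

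After CBC the order of the lines was not the same as at baseline. DDIT3 was 1.43 higher in PANC-1 with PBS and 0.07 higher (0.01 to 0.13) with CBC, both on the log2 scale. TRIB3 was at 0.00 (-0.04 to 0.05) with CBC. NUPR1 remained higher in PANC-1 by 2.60 (2.46 to 2.74), JDP2 by 1.95 (1.76 to 2.15) and CEBPG by 1.06 (1.01 to 1.12). ATF5, at -1.93 (-2.002 to -1.85), ATF3 at -1.37, CEBPB at -1.20 and ATF4 at -0.39 were lower in PANC-1.

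**Figure D3:**
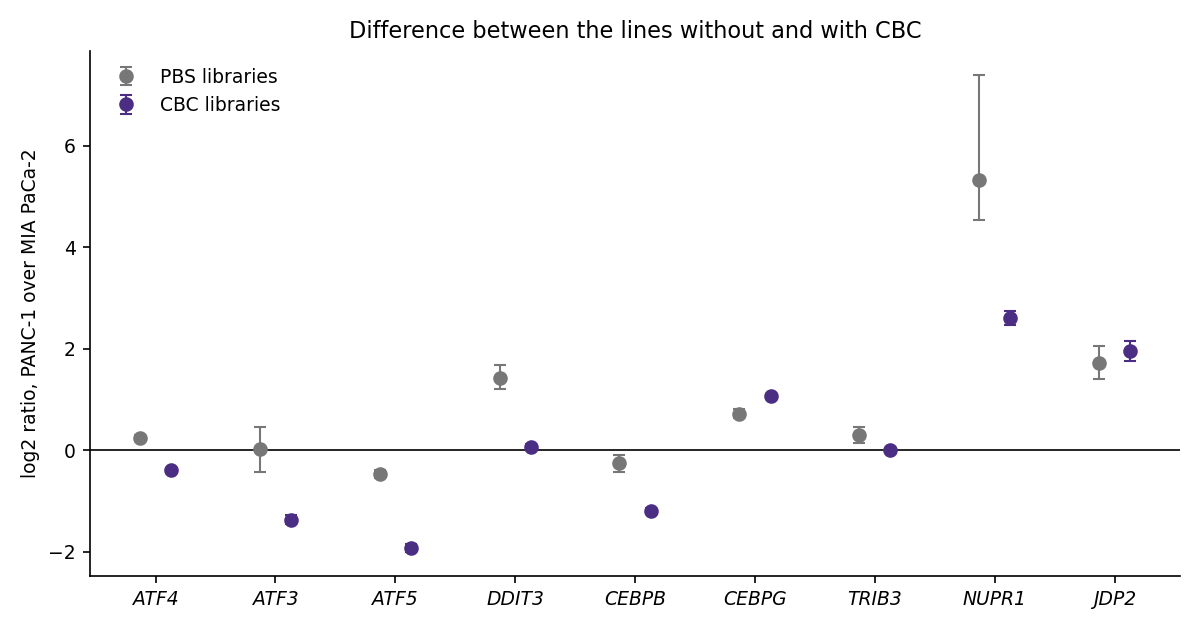
Log2 ratio of PANC-1 over MIA PaCa-2 for each gene in the PBS libraries (grey) and the CBC libraries (purple), with 95% counting intervals as bars. TRIB3 and DDIT3 are at 0.00 and 0.07 with CBC, and NUPR1 and JDP2 are above 0 in both conditions.

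Between genes, levels were compared per kilobase of the MANE Select transcript. ATF4 was the highest of the 9 in every library, at 146 and 433 CPM per kb in MIA PaCa-2 with PBS and CBC and at 171 and 330 CPM per kb in PANC-1. ATF5 was next in both PBS libraries, at 86.0 and 62.2 CPM per kb. DDIT3 was next in both CBC libraries, at 207 and 217 CPM per kb, although CEBPB took that place in MIA PaCa-2 when the length of all exons was used. As a percentage of the ATF4 level per kb, DDIT3 went from 6.57 to 47.8 in MIA PaCa-2 and from 15.1 to 65.7 in PANC-1. The lowest levels with CBC were those of JDP2, at 2.02 and 7.83 CPM per kb. NUPR1 had 3.74 and 22.7 CPM per kb on an annotated transcript of 5.29 kb. Together the 9 genes took 0.0537% of all counts with PBS and 0.218% with CBC in MIA PaCa-2, and 0.0560% and 0.171% in PANC-1.

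The known target genes of ATF4 and CHOP were described as a list of 43 genes that holds none of the 9. This list and those below were chosen with earlier results of these data known. Their shares are descriptions and not independent support. In MIA PaCa-2 cells 28 of 42 tested genes of this list were higher past the fold limit and none was lower, with a median log2 fold change of 1.46. In PANC-1 cells 25 of 42 were higher and none was lower, with a median of 1.17. The list had 23 of 41 genes higher in both lines, against 3.33% of all genes. FGF21, GDF15 and ALDH1L2 passed the minimum of 1 CPM in MIA PaCa-2 through the CBC library alone, as did NIBAN1 and ALDH1L2 in PANC-1, and with the minimum in both libraries 25 of 39 and 23 of 40 were higher. Over both lines 27 of 42 rose and 0 fell by the edgeR test, 37 and 0 had an unadjusted p under 0.05, and DESeq2 called 32 and 0. Among all tested genes, 11.5% were higher in MIA PaCa-2 and 7.71% in PANC-1, and over both lines 2.26% were called higher by edgeR, 10.6% were higher at an unadjusted p under 0.05 and 3.55% were called higher by DESeq2.

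The 5 genes of this list with the largest response in their weaker line were NIBAN1, SESN2, GDF15, DDIT4 and CHAC1, and all of them rose over both lines. NIBAN1, a stress gene linked to translation control, had 134 and 6240 counts in MIA PaCa-2 with PBS and CBC and 11 and 1800 counts in PANC-1 (log2 fold changes 5.37 and 6.86). SESN2 encodes sestrin, a leucine-sensing inhibitor of mTORC1, and had 459 and 7022 counts and 568 and 8813 counts (3.78 and 3.69). GDF15, a secreted stress hormone, had 5 and 2221 counts and 407 and 5400 counts (8.19 and 3.46), and, like NUPR1, it rests on 5 counts in the MIA PaCa-2 control. DDIT4, another inhibitor of mTORC1, had log2 fold changes of 3.68 and 2.66. CHAC1, an enzyme that degrades glutathione, had 3.36 and 2.64.

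The CARE letters were found before the start of 6 of the 35 genes of this list with a window (17.1%), against 3.89% of all genes. The number of windows per gene was not matched in this comparison. ASNS, the asparagine synthetase and a textbook ATF4 target, and CHAC1 are shown with the match in capitals, in CHAC1 as the complement.
ASNS (chr7:97872458-97872487, minus strand): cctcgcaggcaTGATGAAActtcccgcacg
CHAC1 (chr15:40953251-40953280, plus strand): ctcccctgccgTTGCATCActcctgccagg
The match ends 61 bases before the start in ASNS and 202 in CHAC1. ASNS had 2376 and 10561 counts in MIA PaCa-2 with PBS and CBC and 3888 and 14504 counts in PANC-1, with log2 fold changes of 1.998 and 1.63.

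A list of 8 genes held the kinases that act on eIF2 alpha and eIF2 alpha itself. It also held a regulatory subunit of the phosphatase that acts on eIF2 alpha and genes that pass on a mitochondrial signal. Of the 8 genes, 1 was higher in MIA PaCa-2 and none in PANC-1. These shares are near or below the 11.5% and 7.71% of all tested genes. By edgeR 0 of the 8 were called, also 0 at an unadjusted p under 0.05 and 0 with DESeq2, and the smallest edgeR adjusted p was 0.329. The 1 gene was EIF2AK3, which encodes PERK, the ER-resident kinase. It had 323 and 1106 counts in MIA PaCa-2 (log2 fold change 1.62, 1.44 to 1.81) and 543 and 624 counts in PANC-1 (-0.06, -0.23 to 0.10). These kinases act by phosphorylation, which RNA levels do not show.

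Genes of ER chaperones, folding and degradation that ATF6 and XBP1 control, the other arms of the unfolded protein response, are called chaperone genes here. In MIA PaCa-2 cells 11 of 18 genes of this list were higher (median log2 fold change 1.19), against 11.5% of all tested genes. In PANC-1 3 of 18 were higher (median -0.28), against 7.71%. No gene of the list was lower past the fold limit in either line, and 11 of the 18 had values below 0 in PANC-1. The log2 fold change was larger in MIA PaCa-2 for 18 of 18 genes. HSPA5 (BiP, the major ER chaperone), HYOU1 and HERPUD1 were the 3 that rose over both lines by edgeR, which called 2.26% of all genes higher. Their log2 fold changes were 2.43 and 1.86, 2.24 and 1.16, and 3.23 and 1.62 in MIA PaCa-2 and PANC-1. The others past the limit in MIA PaCa-2 were DNAJB9 at 3.30, SYVN1 at 1.53, SEL1L at 1.47, DNAJC3 at 1.37, SDF2L1 at 1.27, MANF at 1.26, HSP90B1 at 1.13 and PDIA3 at 1.02. DESeq2, which called 3.55% of all genes higher, called SEL1L higher over both lines as well. The values of these 8 genes in PANC-1 ran from -0.58 for MANF to 0.69 for SEL1L.

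**Figure D4:**
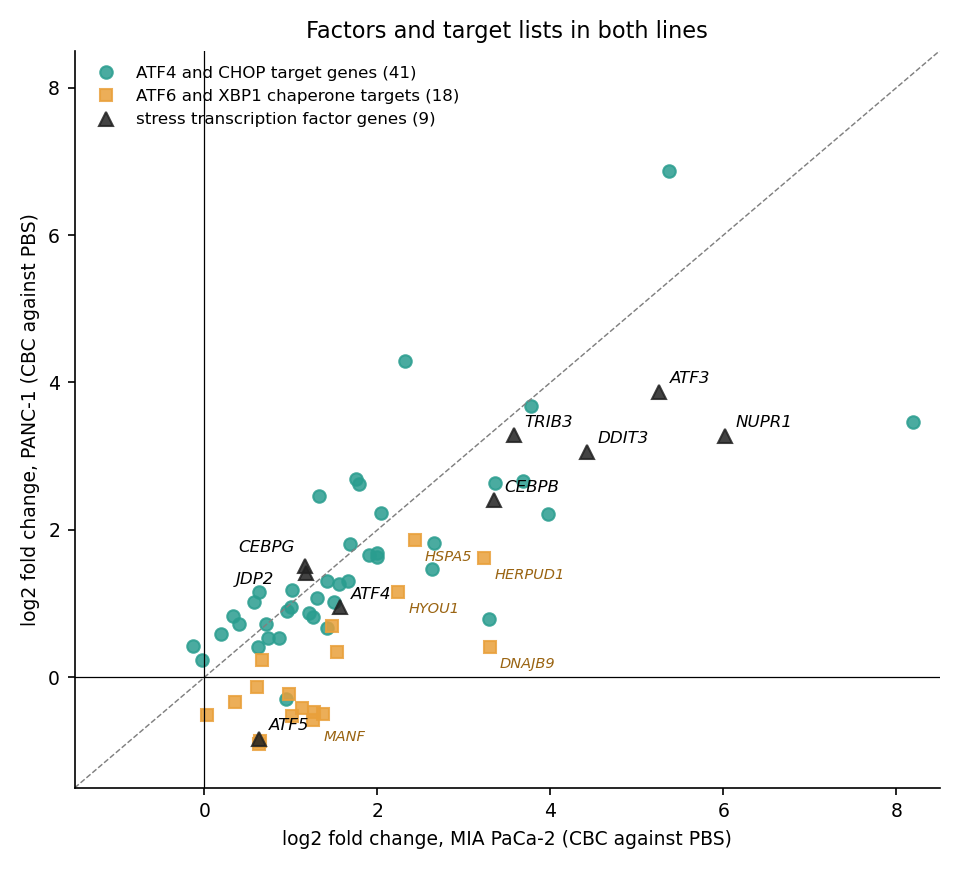
Log2 fold change in MIA PaCa-2 (x axis) against PANC-1 (y axis) for the stress transcription factor genes (black triangles), the ATF4 and CHOP target genes (green circles) and the chaperone genes of ATF6 and XBP1 (orange squares), each point 1 gene and the dashed line marking equal change. All 18 chaperone genes lie below the dashed line, and 11 of them lie below 0 on the y axis.

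Relatives of the 9 genes were described with the same counts, to be read against 11.5% higher and 8.97% lower of all tested genes in MIA PaCa-2 and 7.71% and 7.03% in PANC-1. Over both lines edgeR called 2.26% of all genes higher and 2.45% lower, and DESeq2 3.55% and 4.52%. At an unadjusted edgeR p under 0.05 the shares were 10.6% and 10.4%. Of the ATF and CREB relatives 7 of 17 were higher and 1 was lower in MIA PaCa-2, 3 of 16 were higher and none was lower in PANC-1, and 3 rose over both lines by edgeR (ATF6, XBP1 and NFIL3). BATF2, BATF3 and, of the AP-1 partners, FOSB passed the minimum of 1 CPM in MIA PaCa-2 through the CBC library alone, as did BATF3 in PANC-1. With the minimum in both libraries, 5 of 14 ATF and CREB relatives and 4 of 6 AP-1 partners were higher in MIA PaCa-2, against 8.18% of all genes. In PANC-1 these were 3 of 15 and 1 of 6, against 5.64%. XBP1, the splice-activated factor of the unfolded protein response, had 1819 and 9612 counts in MIA PaCa-2 and 1095 and 3121 in PANC-1 (log2 fold changes 2.25 and 1.24). NFIL3, a leucine zipper repressor, had 106 and 653 counts and 287 and 1067 counts (2.45 and 1.62). Of the AP-1 partners, the JUN and FOS genes, 5 of 7 were higher in MIA PaCa-2 and 1 in PANC-1 (JUND), with medians of 1.99 and -0.08. JUND was the only one of them that passed the edgeR test, while DESeq2 called 2. By the fold limit, 2 of 2 C/EBP relatives were higher in MIA PaCa-2 and 0 of 1 in PANC-1. Of the tribbles relatives, 1 of 2 was higher in MIA PaCa-2, and 1 of 2 was lower and 0 were higher in PANC-1. Of the 2 C/EBP relatives and the 2 tribbles relatives that could be tested over both lines, 0 were called by edgeR or DESeq2. At an unadjusted edgeR p under 0.05, 0 C/EBP relatives passed, and 1 tribbles relative was higher and 1 lower.

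For 4 of the factors the genes with the most similar pattern were sought among the 10068 genes whose mean reached 10 CPM. The measure was the Euclidean distance over 3 log2 ratios, CBC against PBS in each line and PANC-1 against MIA PaCa-2 with PBS. Nearest to DDIT3 were DDIT4 at a distance of 1.10, the uridine phosphorylase gene UPP1 at 1.15 and CHAC1 at 1.25. For TRIB3 they were SESN2 at 0.448, DDIT4 at 0.759 and CHAC1 at 0.917. For ATF3 they were SESN2 at 1.52, TRIB3 at 1.80 and DDIT3 at 1.83, so that no gene lay as near to ATF3 as SESN2 did to TRIB3. ATF4, whose change was smaller, had nearer neighbours, with the autophagy gene ATG2A at 0.147, NAIF1 at 0.2004 and GTF2IP13, a pseudogene whose reads may be shared with its parent gene, at 0.209. The distances are a description over 3 ratios, of which the baseline ratio shares a PBS library with each of the others.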

How the data were processed

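The authors sequenced poly(A) RNA in 1 library per line and treatment. Reads were trimmed (cutadapt 2.7), mapped to GRCh38 (STAR) and assigned to genes of Ensembl release 89 (HTSeq) by the authors. The strand setting is not given in the sources used here. The table they deposited gives raw, unfiltered counts. The authors also deposited a normalised signal per library, a CPM after TMM, which differed from the values computed here by at most 6.84e-09 of the value. All results start from the counts.

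edgeR 4.0.16 (R 4.3.3) gave the log2 fold changes, with TMM over 4 libraries and a prior count of 2, for genes that reached 1 CPM in either library compared. Intervals (R 4.3.3 and scipy 1.17.1) and the limit of 3 counts cover counting error only. The quasi-likelihood test used the genes that filterByExpr kept, with the line as a block and 1 residual degree of freedom. The pairing comes from the lines, and the deviations of the 2 libraries of a line from their treatment means correlated at 0.923 across genes. Nothing says that the libraries are more than 1 culture each. The block takes out the level difference between the lines, so the p-values rest on the spread of the CBC response between them. With 1 residual degree of freedom the test shares this spread over genes, and its p-values depend on the genes kept. For TRIB3 the edgeR p was 3.87e-07 with the filter and 8.35e-45 without it. The script was tested on simulated data. DESeq2 1.42.0, other scalings, priors and filters were alternatives.

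The members and lists were chosen with earlier results of these data known. Named genes were all members, relatives past the fold in both lines and a mean of 5 CPM or more, the 5 targets with the largest smaller change and any that were lower past the fold, chaperone and kinase genes past the fold in either line, and the 3 nearest genes to 4 members. ATF6, JUND, ASNS, ALDH1L2, FGF21, BATF2, BATF3, FOSB and the marker genes were named outside this rule, after their values were seen. Symbols matched for 57392 of 58233 identifiers. Positions and lengths are from GENCODE release 44, promoter sequences from RefSeq.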

Additional observations from a re-analysis of the deposited data

Results flagged for a closer look

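ATF5 was singled out because its libraries moved in opposite directions in the lines. The level went from 173 to 267 CPM with CBC in MIA PaCa-2 and from 125 to 70.1 CPM in PANC-1. The log2 fold changes of 0.63 and -0.83 differed by 1.46, and the difference was not tested, because 1 library per condition leaves no residual degrees of freedom.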

How the results depend on the processing

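The number of members past the fold limit stayed at 7 or 8 in MIA PaCa-2, 7 or 8 in PANC-1 and 2 or 3 at baseline under the alternatives tried, which were other scalings, prior counts, filters, a pseudocount and a rule on the counting interval. Over both lines, 8 members were called, and DESeq2's Wald test also called 8. Without the block for the line 0 members were called, and 0 of all 16381 genes, while 354 genes had an unadjusted p under 0.05, and the estimate for ATF5 changed sign to 0.21. No result could be tested with a library left out, because no residual degrees of freedom remain then, so the values of each line stand in for it. The log2 fold change of NUPR1 in MIA PaCa-2 ranged from 4.09 to 6.34 and its baseline ratio from 3.44 to 5.65, a value that rests on 5 counts in 1 library. Over all genes and both lines, 370 were called higher and 401 lower, against 1056 and 1007 without a filter on low counts and 582 and 740 with DESeq2. Past the fold limit, the counts of all genes higher and lower in MIA PaCa-2 were 1608 and 1256, against 3249 and 2567 without a filter, 1039 and 952 with 1 CPM required in both libraries, and 1003 and 716 by the counting interval. In PANC-1 they were 1087 and 991, against 2537 and 2310 without a filter, 680 and 710 with a pseudocount of 1 CPM, and 557 and 630 by the counting interval. At baseline they were 3548 and 2659, against 5714 and 5164 without a filter and 2066 and 1528 with 1 CPM in both libraries. No paired analysis beyond the block for the line was possible because there is 1 library per line and treatment.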

Other observations

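Other C/EBP family genes differed between the lines more than CEBPB and CEBPG did. CEBPA had 397 and 993 counts in MIA PaCa-2 with PBS and CBC but 14 and 3 counts in PANC-1, and CEBPD had 65 and 240 counts against 21 and 28. FGF21, a hormone gene of the ATF4 and CHOP target list, had 0 counts with PBS and 43 with CBC in MIA PaCa-2, at least 12.9-fold higher against a limit of 3 counts in the control, and it had 0 counts in both PANC-1 libraries. TRIB1 had 62 and 312 counts in MIA PaCa-2 and 402 and 624 in PANC-1, and TRIB2 had 2179 and 2146 counts against 237 and 91. These genes were named after their values were seen.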
